A study of Danio rerio with 7 samples.

Results

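The libraries labelled ctr9 morpholino in DMSO were set against those of uninjected embryos in DMSO, in sox10-positive cells sorted from zebrafish (Danio rerio) embryos. The members are 4 of the 6 library columns deposited for 7 labelled samples: 2 of morpholino-injected embryos, numbered experiment 1 and 2, and 2 of uninjected embryos, whose columns are named 5 ng and 10 ng. They were chosen by these column names, and 13145 of 33735 genes, those with a mean of at least 1 FPKM over all 6 columns, were tested. FPKM are fragments counted for each kilobase of a transcript and scaled by the size of the library. The embryos of both groups were raised at 28 °C and kept in DMSO from 50% epiboly to the stage of 15 somites, and ribosomal RNA was depleted from the RNA of the sorted cells. The labels name neither the strain nor the reporter used for sorting. No library of embryos injected with a control morpholino was analysed here, so the act of injection and the ctr9 sequence cannot be told apart. The labels do not say whether the libraries of a group derive from separate clutches, so every p-value measures a spread between libraries that may be technical. In the main test that spread was estimated over 3 groups, because the 2 libraries of progesterone-treated morpholino embryos shared in the fit.

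Ctr9 is a scaffold subunit of PAF1, a complex that accompanies RNA polymerase II along genes and helps to couple elongation with histone modification and RNA processing. Morpholinos are antisense oligonucleotides that keep a target RNA from being translated or correctly spliced. Sox10 is a transcription factor of the neural crest, the migratory cells that give rise to pigment cells, peripheral glia and neurons, and of the otic vesicle. Its mRNA overlapped between the groups, at 134.1 and 146.7 FPKM without the morpholino and at 160.2 and 125.5 FPKM with it. The sum of the 9 neural crest markers found did not overlap, at 531.7 and 603.0 FPKM against 471.9 and 433.2 FPKM. In FPKM, twist1a showed the largest drop among them, at 103.3 and 119.4 FPKM against 72.0 and 34.7 FPKM. On the log2 scale pax7b and pax7a fell further, with log2 fold changes of -2.53 and -2.16 against -1.14 for twist1a. Pax7a, pax7b and tfap2a were also lower in both morpholino libraries, while snai1b and sox9b overlapped and pax3a was nearly equal. The crest marker foxd3 was under 1 FPKM in all 4 libraries, although most of the other crest markers were present. Of the markers of other cell types, 6 of 7 for muscle and 4 of 6 for blood were also under 1 FPKM in all 4. Ctr9 mRNA was higher with the morpholino, at 16.8 and 19.95 FPKM in the uninjected and at 42.2 and 36.7 FPKM in the morpholino libraries. Its log2 fold change was 1.06 ± 0.30 (SE). As such reagents need not lower the amount of target mRNA, that level does not check the label.

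The number of sequenced fragments is unknown. Steps in the low FPKM values gave depths of 1.29 to 1.47 times that of the 5 ng library for the other 3 libraries. The summed FPKM lay between 356101 and 366905, and small non-coding RNA took 12.5% to 16.0% of it. The correlation of log2 values across genes was 0.915 for the uninjected and 0.882 for the morpholino libraries.

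Only 2 genes passed the test, and both are copies of U6, the small nuclear RNA at the catalytic core of the spliceosome. At a limma adjusted p of at most 0.05, 0 genes (0%) were called higher with the morpholino and 2 (0.0152%) lower. Without adjustment, a p under 0.05 was reached by 184 genes (1.4%) that were higher and by 351 (2.67%) that were lower, 4.07% in all. The 2 groups' values did not overlap for 2165 genes (16.5%) that were higher and 3439 (26.2%) that were lower (42.6% in all), and these shares are the background for every count given for a gene list. The median log2 fold change of all tested genes was -0.07 and its quartiles were -0.38 and 0.22, beside a median standard error of 0.47. When the 4 DMSO libraries were fitted without those of progesterone-treated morphants, which otherwise share in the estimate of the spread, a p under 0.05 without adjustment was reached by 457 higher and 968 lower genes (10.8% in all).

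**Figure D1:**
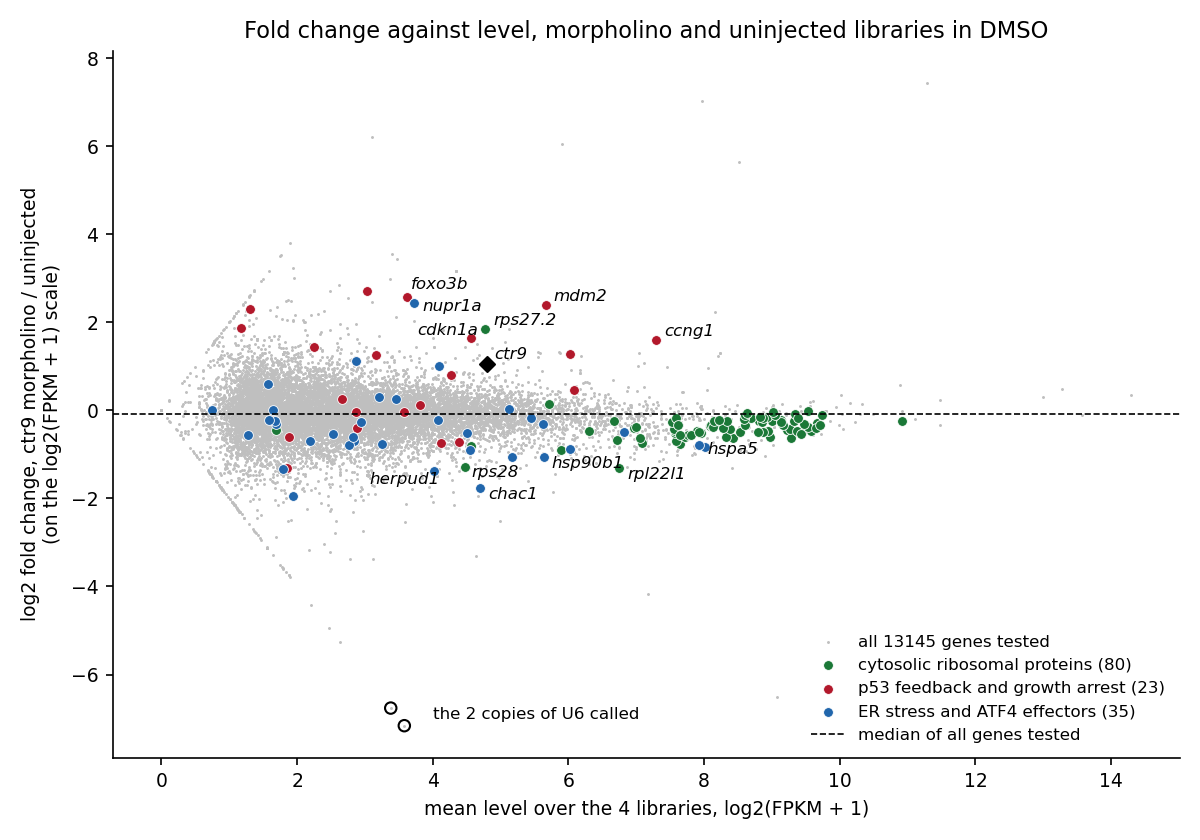
Log2 fold change of the morpholino against the uninjected libraries (y axis, on the log2(FPKM + 1) scale) against the mean level over the 4 libraries (x axis, log2(FPKM + 1)). Each grey point is 1 of 13145 genes tested, colours mark 3 gene lists, the diamond marks ctr9 and open circles the 2 copies of U6 called; ribosomal protein genes form a band below the dashed median of -0.07, and p53 genes reach above a log2 fold change of 2.

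The first U6 copy, ENSDARG00000091338, was listed at 128.8 and 156.9 FPKM in the uninjected libraries and at 0 in both morpholino libraries (limma adjusted p = 0.00542). The second, ENSDARG00000090134, was listed at 85.9 and 134.5 FPKM and again at 0 in both morpholino libraries (limma adjusted p = 0.00777). Both copies were also listed at 0 in both libraries of progesterone-treated morpholino embryos. Of the groups in the fit, only the uninjected one therefore showed any spread for these copies. These copies fell, but the class as a whole did not move in a common direction. Summed over all 708 copies listed, tested or not, U6 stood at 343.5 and 711.1 FPKM without the morpholino. The sum was 0 in experiment 1 and 5422 in experiment 2, where the copy ENSDARG00000089180 alone was listed at 5379. All 14 tested U6 copies were listed at 0 in at least 1 of the 4 libraries. U6 copies are near-identical, and reads could be split among them by the authors' counting, so both calls are uncertain. Neither call was kept when any 1 of the 4 libraries was left out (smallest adjusted p between 0.0626 and 0.246).

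Other spliceosomal and nucleolar RNAs were listed as many copies, and single copies did not always follow their class. The U5 copy ENSDARG00000081108, part of the same catalytic particle, was listed at 665.8 and 556.5 FPKM against 37.5 and 29.0 FPKM with the morpholino, a log2 fold change of -4.17 ± 1.19 (SE, n = 2 against 2). It missed the threshold (limma adjusted p = 1) but passed when the 4 DMSO libraries were fitted alone (limma adjusted p = 0.0262). Summed over copies, U5 overlapped between the groups, at 1531 and 721.9 FPKM against 1192 and 395.4 FPKM, and 14 of its 15 tested copies were listed at 0 in at least 1 of the 4 libraries. U3, the small nucleolar RNA needed for the first cleavages of the ribosomal RNA precursor, went the other way. Of 22 tested copies, 12 were higher without overlap and 0 lower, and 11 had an unadjusted p under 0.05. Only 12 of the 22 carry distinct values, and 7 are listed with the same 1.01 and 0.150 FPKM against 2.94 and 4.49 FPKM, so they are not separate measurements. Summed over copies, U3 stood at 140.7 and 101.6 FPKM against 171.0 and 312.5 FPKM, higher in both morpholino libraries.

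Signal recognition particle RNA, named Metazoa_SRP in the table, guides nascent secretory proteins to the endoplasmic reticulum and was the most abundant class. Its copies together held 34183 and 32201 FPKM without and 39555 and 37971 FPKM with the morpholino. Of 64 tested copies, 30 were higher without overlap and 14 lower, with 17 and 3 at an unadjusted p under 0.05. The copy with the smallest p, ENSDARG00000088445, stood at 5.86 and 5.28 FPKM against 26.5 and 24.9 FPKM (log2 fold change 2.02 ± 0.37). U1, which recognises the start of introns, had 50 of 193 tested copies higher without overlap and 8 lower, while its sum overlapped, at 4265 and 5626 FPKM against 5362 and 4839 FPKM. RNase P and RNase MRP RNAs, which process transfer and ribosomal RNA precursors, had 4 of 5 higher and 0 lower. SNORA63, a guide RNA for pseudouridylation, was listed at 43.4 and 20.4 FPKM in the uninjected libraries and at 0 in both morpholino libraries (limma adjusted p = 0.129).

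**Figure D2:**
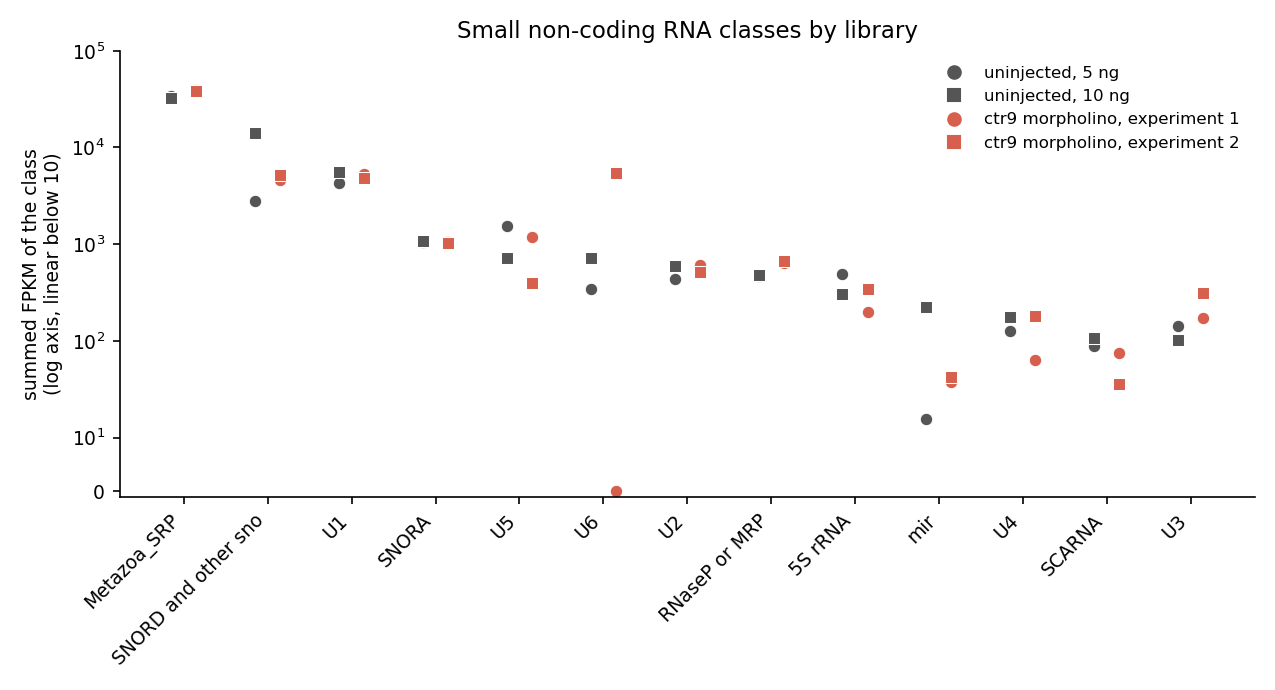
Summed FPKM of each small non-coding RNA class (y axis, log scale above 10 and linear below) in the 4 libraries, for classes with at least 5 tested genes. Grey points are uninjected and red points morpholino libraries; U6 ranges from 0 to 5422 FPKM between the 2 morpholino libraries, while Metazoa_SRP lies between 32201 and 39555 FPKM in all 4.

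Genes of p53 feedback and growth arrest had the highest median fold change of the lists with at least 10 tested genes. As the lists were chosen with earlier results of these data known, that rank is no independent support. The transcription factor p53 responds to DNA damage and to failures of transcription or ribosome assembly, and its targets arrest the cell cycle, restrain p53 itself or promote cell death. Of 23 tested genes of feedback and growth arrest, 14 were higher without overlap and 6 lower, with a median log2 fold change of 0.81, against -0.07 over all genes. At an unadjusted p under 0.05, 10 were higher and 1 lower, and 0 passed after adjustment over all genes. Without overlap and at least 1 log2 unit apart, 11 were higher and 1 lower, where all genes gave 2.5% and 3.8% (6.3% in all). The list's median lay between 0.60 and 0.87 when each of the 4 libraries was left out.

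Ccng1, an atypical cyclin gene and the highest in level of the list, was at 82.0 and 97.0 FPKM in the uninjected and at 214.7 and 343.4 FPKM in the morpholino libraries, a log2 fold change of 1.60 ± 0.47. The morpholino library of experiment 2 was the highest of the 4 and experiment 1 the next. Foxo3b, a stress-responsive transcription factor gene, was at 5.01 and 3.25 FPKM against 19.2 and 43.3 FPKM (2.57 ± 0.51). Sesn1, encoding a sestrin that restrains mTORC1, was at 4.15 and 5.59 FPKM against 9.06 and 18.2 FPKM (1.25 ± 0.50). Experiment 2 was again above experiment 1, and the groups did not overlap. The growth arrest genes of the gadd45 family split by paralog. Gadd45aa was at 0 and 0.386 FPKM against 2.05 and 5.15 FPKM (1.88 ± 0.49). Gadd45ab, its paralog, went from 5.17 and 4.17 FPKM to 1.51 and 1.08 FPKM (-1.31 ± 0.41), so the morpholino libraries were the higher in the first and the lower in the second. Mdm2 and cdkn1a, the ubiquitin ligase that restrains p53 and the inhibitor of cyclin-dependent kinases, had log2 fold changes of 2.38 ± 0.49 and 1.64 ± 0.35. Each of these genes missed the threshold (limma adjusted p of at least 0.919).

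Cell death genes linked to p53 mostly overlapped between the groups. Of 19 tested, 4 were higher without overlap and 1 lower, with a median log2 fold change of 0.08, and 2 were higher at an unadjusted p under 0.05. These were bbc3, the BH3-only killer protein Puma, at 0.411 and 1.25 FPKM against 3.73 and 10.4 FPKM (2.04 ± 0.64), and casp8, the initiator caspase of death receptors, at 0.673 and 1.78 FPKM against 4.09 and 13.9 FPKM (2.01 ± 0.63). Both were low in uninjected cells and highest in experiment 2.

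**Figure D3:**
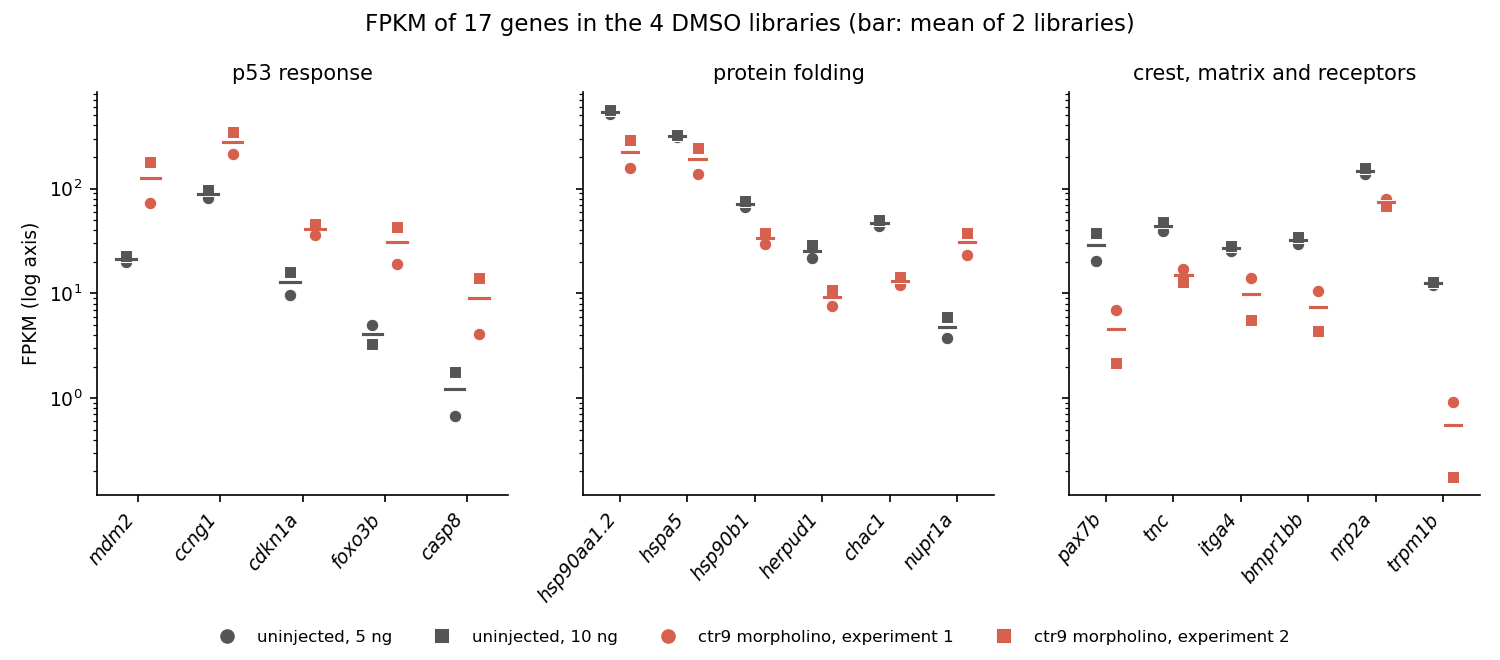
FPKM (log axis) of p53 response genes, protein folding genes, and crest, matrix and receptor genes in each of the 4 libraries. Grey marks uninjected and red morpholino libraries, circles the 5 ng library or experiment 1, squares the 10 ng library or experiment 2, and bars the mean of 2 libraries; mdm2 is at 73.2 and 180.5 FPKM with the morpholino against 19.99 and 22.5, and bmpr1bb at 10.5 and 4.33 against 29.5 and 34.5.

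Genes of protein folding in the endoplasmic reticulum and of the ATF4 stress program lay below the rest. This program is switched on when misfolded proteins or amino acid shortage slow translation. Of 35 tested members, 21 were lower without overlap and 4 higher, with a median log2 fold change of -0.51. At an unadjusted p under 0.05, 6 were lower and 2 higher. Herpud1, which serves the degradation of misfolded proteins, was at 21.8 and 29.0 FPKM in the uninjected and at 7.53 and 10.8 FPKM in the morpholino libraries (log2 fold change -1.38 ± 0.33, limma adjusted p = 0.998). Hsp90b1, the chaperone of the endoplasmic reticulum lumen, was at 66.7 and 75.4 FPKM against 29.6 and 37.6 FPKM (-1.07 ± 0.34). Both morpholino libraries were below both uninjected ones for these genes and for the chaperone gene hspa5, at 309.9 and 326.2 FPKM against 138.8 and 245.2 FPKM (-0.78 ± 0.49). Atf3, a transcription factor of acute stress, was at 320.6 and 365.1 FPKM against 163.7 and 225.2 FPKM (-0.83 ± 0.28). Chac1, a glutathione-degrading ATF4 target, was at 44.0 and 50.1 FPKM against 11.98 and 14.2 FPKM (-1.77 ± 0.80). Its unadjusted limma p was 0.0655 in the main test and 0.000268 with the 4 DMSO libraries alone.

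Against this direction went ENSDARG00000094300, whose current symbol is nupr1a, the gene of a small stress-induced nuclear protein. It stood at 3.72 and 5.90 FPKM against 23.4 and 38.0 FPKM (log2 fold change 2.44 ± 0.42, limma adjusted p = 0.858). Ppp1r15a, the phosphatase subunit that reverses the translation block of the stress response, was at 10.8 and 11.2 FPKM against 24.1 and 22.3 FPKM (1.01 ± 0.38). The groups did not overlap for either gene.

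Heat shock proteins and cytosolic chaperones, which fold proteins outside that compartment, also included lower genes. Of 38 tested, 16 were lower without overlap and 5 higher, with a median log2 fold change of -0.15, and 4 were lower at an unadjusted p under 0.05 and 0 higher. Hsp90aa1.2, a cytosolic Hsp90, was at 512.5 and 558.1 FPKM against 157.4 and 290.5 FPKM (-1.32 ± 0.34). Its near-identical neighbour in name, hsp90aa1.1, was at 11.9 and 15.05 FPKM against 7.15 and 6.43 FPKM (-0.89 ± 0.33), and reads could be split between the paralogs. Serpinh1b, the collagen chaperone Hsp47, was at 659.3 and 695.4 FPKM against 239.4 and 459.3 FPKM (-1.03 ± 0.37), with experiment 1 the lowest of the 4. Immediate early genes, transcribed within minutes of a stimulus, had 18 of 36 lower without overlap and 5 higher, with a median of -0.26.

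Most cytosolic ribosomal protein genes lay slightly lower. Of 80 tested cytosolic ribosomal protein genes, 68 were lower without overlap and 1 higher, with a median log2 fold change of -0.39, and -0.28 after median-ratio scaling. At an unadjusted p under 0.05, 7 were lower and 1 higher. Rps29, of the small subunit, was at 190.9 and 159.1 FPKM against 104.5 and 101.7 FPKM (-0.75 ± 0.25). Rps28, lower in level than most, was at 39.3 and 29.0 FPKM against 10.7 and 16.3 FPKM (-1.29 ± 0.42). The exception was rps27.2, ENSDARG00000090186, at 13.2 and 13.6 FPKM against 44.4 and 57.4 FPKM (1.84 ± 0.64). A second entry named rps27.2, ENSDARG00000055475, was at 300.9 and 313.8 FPKM against 259.1 and 261.3 FPKM, and reads could be split between these near-identical copies. Nucleolar and ribosome biogenesis genes had 29 of 80 lower without overlap and 5 higher and a median of -0.16. Mitochondrial ribosomal protein genes had 11 of 61 lower and 7 higher, both smaller shares than over all genes. Their median of -0.11 was near that of all genes. DNA replication genes had 31 of 65 lower without overlap and 5 higher, with a median of -0.29. Among them e2f7, an E2F family repressor, was higher, at 6.91 and 6.75 FPKM against 11.6 and 16.5 FPKM (0.93 ± 0.35).

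**Figure D4:**
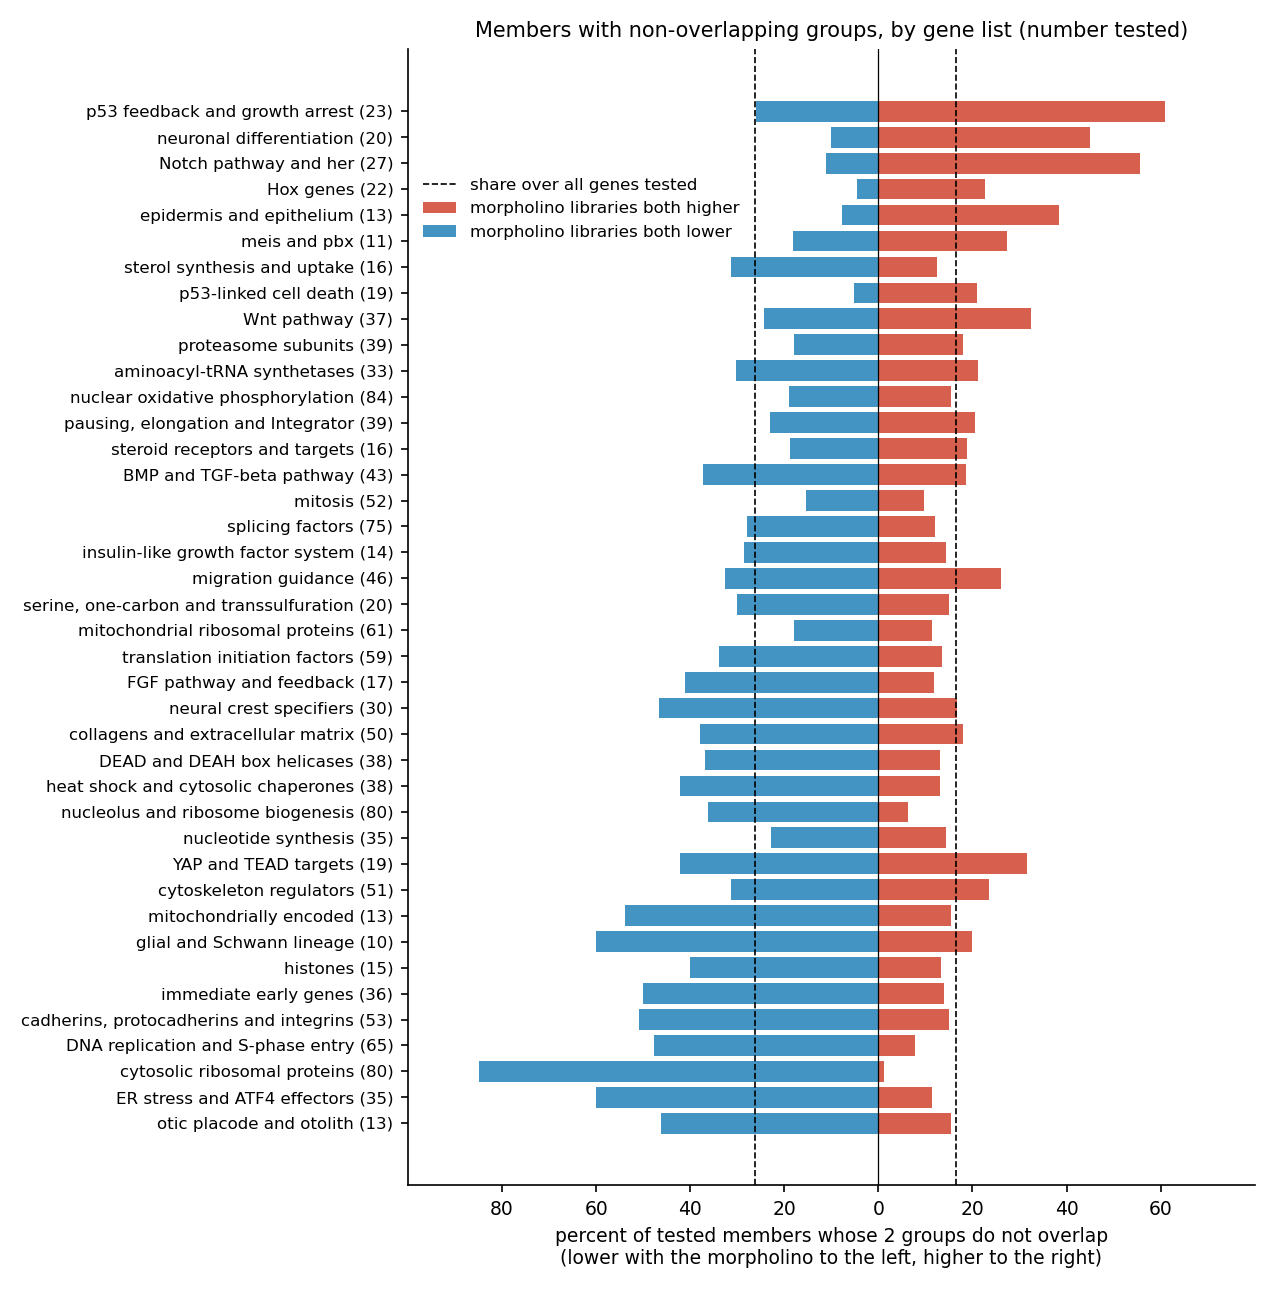
Percent of tested members whose groups do not overlap (x axis), lower with the morpholino to the left and higher to the right, for each list with at least 10 tested genes, ordered by median log2 fold change. Dashed lines mark the shares over all 13145 genes, 26.2% and 16.5%. Bars of p53 feedback, Notch and neuronal genes extend to the right, and cytosolic ribosomal protein and endoplasmic reticulum stress genes to the left.

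Neural crest specifiers, the transcription factors that set up the crest and their partners, included both lower and higher genes. Of 30 tested, 14 were lower without overlap and 5 higher, with a median log2 fold change of -0.15, and pax7b and pax7a were lower at an unadjusted p under 0.05. Pax7b, a paired-box factor of crest and pigment precursors, was at 20.5 and 37.7 FPKM against 6.95 and 2.16 FPKM (-2.53 ± 0.54). The receptor tyrosine kinase gene erbb3b, which peripheral glia need for migration along nerves, was at 15.8 and 14.2 FPKM against 7.30 and 5.55 FPKM (-1.11 ± 0.53). Erbb3b did not reach an unadjusted p of 0.05, and the glial list had 6 of 10 lower without overlap and 2 higher. Going the other way, msxb, a homeobox gene of the neural plate border, was at 16.5 and 16.0 FPKM against 39.7 and 21.7 FPKM (0.82 ± 0.37). In these bulk libraries, fewer cells of a type and less RNA per cell cannot be told apart.

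Trpm1b, a melastatin-type cation channel gene, had the smallest p of the lower named genes outside the small RNA classes. It was at 12.1 and 12.9 FPKM in the uninjected and at 0.925 and 0.177 FPKM in the morpholino libraries (-3.16 ± 0.43, limma adjusted p = 0.403). Cax1, a cation and proton exchanger gene expressed in zebrafish neural crest, was at 4.69 and 5.94 FPKM against 0.367 and 0.0654 FPKM (-2.38 ± 0.44, limma adjusted p = 0.919). Both morpholino libraries were under 1 FPKM for these genes.

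Crest cells leave the neural tube and find their way with genes of adhesion, matrix and guidance. Of 53 cadherin, protocadherin and integrin genes tested, 27 were lower without overlap and 8 higher, with a median of -0.27, and 6 were lower at an unadjusted p under 0.05 and 0 higher. Itga4, the integrin subunit that binds fibronectin and VCAM, was at 25.4 and 28.5 FPKM against 14.1 and 5.51 FPKM (-1.49 ± 0.48). Itga8, an integrin subunit for RGD ligands, was at 3.79 and 5.11 FPKM against 0.599 and 0.139 FPKM (-2.00 ± 0.63). Experiment 2 was the lowest library for both. Tnc, the matrix glycoprotein tenascin C, was at 39.7 and 48.0 FPKM against 17.1 and 12.8 FPKM (-1.50 ± 0.32, limma adjusted p = 0.919). Lama4, a laminin chain gene, was at 5.47 and 4.91 FPKM against 1.14 and 1.19 FPKM (-1.51 ± 0.41). The groups did not overlap in either.

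The metalloproteinases, which cut matrix, went both ways. Mmp2, a gelatinase, was at 6.94 and 10.2 FPKM against 24.5 and 42.3 FPKM (1.82 ± 0.40). Mmp14b, of the membrane-bound kind that activates Mmp2, was at 11.8 and 13.1 FPKM against 3.16 and 5.26 FPKM (-1.40 ± 0.39). Over the whole matrix list 19 of 50 were lower without overlap and 9 higher, with a median of -0.15. Of 46 guidance genes, 15 were lower and 12 higher without overlap, with a median of -0.10 near that of all genes, and only the neuropilin genes nrp2a and nrp2b had an unadjusted p under 0.05. Nrp2a, a receptor for class 3 semaphorins, was at 138.5 and 155.6 FPKM against 80.2 and 68.6 FPKM (-0.98 ± 0.36). Nrp2b was at 29.1 and 30.3 FPKM against 19.2 and 8.08 FPKM (-1.18 ± 0.44). Both paralogs lay lower in both morpholino libraries.

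In the BMP and TGF-beta pathway, whose secreted ligands pattern the neural plate border, genes lay on both sides. Of 43 tested members, 16 were lower without overlap and 8 higher, with a median log2 fold change of -0.04, near that of all genes. Bmpr1bb, a type I BMP receptor gene (entry ENSDARG00000075729), was at 29.5 and 34.5 FPKM against 10.5 and 4.33 FPKM (-2.07 ± 0.52). A second entry of that name was at 7.66 and 9.18 FPKM against 7.15 and 5.44 FPKM (-0.37 ± 0.37), so reads could be split between them. Both entries were lower with the morpholino. Tgfbr2, a type II receptor gene, was at 7.12 and 13.4 FPKM against 1.93 and 1.66 FPKM (-1.95 ± 0.45, limma adjusted p = 0.964). Among the ligands gdf6a was higher, at 2.94 and 2.51 FPKM against 6.59 and 11.2 FPKM (1.37 ± 0.39), and gdf11 lower, at 2.61 and 5.16 FPKM against 0.790 and 0.239 FPKM (-1.66 ± 0.46). Wnt5b, a ligand of planar cell polarity, was at 5.12 and 7.33 FPKM against 1.29 and 0.915 FPKM (-1.77 ± 0.40). The Wnt list as a whole had 12 of 37 members higher without overlap and 9 lower, with a median of 0.02. Igf2a, an insulin-like growth factor, was higher, at 0.376 and 0.823 FPKM against 5.25 and 11.7 FPKM (2.49 ± 0.53, limma adjusted p = 0.919). Its binding protein gene igfbp1a was at 5.53 and 7.39 FPKM against 2.37 and 1.85 FPKM (-1.26 ± 0.48), so ligand and binding protein lay on opposite sides.

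Notch genes, through which neighbouring cells hold each other back from differentiating, lay slightly higher. Of 27 tested, 15 were higher without overlap and 3 lower, with a median log2 fold change of 0.35. In the main test, 0 reached an unadjusted p of 0.05 in either direction. The ligand gene dlb was at 3.51 and 4.31 FPKM against 6.46 and 6.63 FPKM (0.62 ± 0.37). The target gene hey1 was at 1.84 and 1.76 FPKM against 4.21 and 3.91 FPKM (0.85 ± 0.63). Notch2, a receptor, was lower, at 16.2 and 17.2 FPKM against 11.1 and 7.13 FPKM (-0.83 ± 0.37). With the 4 DMSO libraries alone, the unadjusted limma p was 0.0333 for hey1, 0.0295 for notch2 and 0.0705 for dlb. Of 20 neuronal differentiation genes, 9 were higher without overlap and 2 lower, with a median of 0.51. Tuba1a and tuba1c, near-identical neuronal tubulin genes between which reads could be split, had log2 fold changes of 0.90 ± 0.31 and 0.88 ± 0.31. The first was at 34.3 and 35.1 FPKM against 73.0 and 59.0 FPKM, higher in both morpholino libraries. Neural cell markers together held 64.5 and 89.0 FPKM without and 125.8 and 96.6 FPKM with the morpholino. Among them elavl3, neurod4, stmn1b, sox3, pou3f3b and zic1 were higher without overlap, while tubb5, sox19a and neurog1 overlapped. Sox2 was lower, at 4.73 and 3.96 FPKM against 2.96 and 2.01 FPKM. The part of neural cells in these values was not tested.

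Markers of several other cell types were present in the sorted cells and were not at the same level in both groups. Some sums were lower with the morpholino. Endothelial markers summed to 48.5 and 63.5 FPKM against 35.5 and 23.4 FPKM, mostly fli1a, with 3 of 5 under 1 FPKM in all 4 libraries. Pigment markers summed to 7.13 and 10.9 FPKM against 5.18 and 2.51 FPKM, with 3 of 7 under 1 FPKM in all 4. Epidermal markers came to a sum of 64.4 and 68.6 FPKM without and of 66.9 and 166.5 FPKM with the morpholino, so that experiment 2 stood apart. Of 13 tested genes of epidermis and epithelium, 5 were higher without overlap and 1 lower. Krt5, an epidermal keratin gene, was at 4.42 and 8.22 FPKM against 10.7 and 27.0 FPKM (1.36 ± 0.52). Krt8, a keratin gene of simple epithelia, went the other way, from 100.2 and 102.4 FPKM to 61.1 and 51.0 FPKM (-0.85 ± 0.28). Markers of endoderm, yolk and hatching gland summed to 51.8 and 42.3 FPKM against 96.9 and 93.5 FPKM, and that difference between the sums was carried by apoeb, a lipoprotein gene of the yolk layer, at 28.9 and 27.9 FPKM against 80.2 and 66.7 FPKM (1.34 ± 0.45). Without apoeb the sums overlapped, at 22.9 and 14.5 FPKM against 16.6 and 26.8 FPKM, and the endoderm factors sox17 and sox32 were listed at 0 in all 4 libraries. Notochord markers summed to 17.5 and 18.4 FPKM against 31.4 and 40.1 FPKM, and without ctgfa to 15.3 and 15.7 FPKM against 19.8 and 28.2 FPKM, higher in both morpholino libraries. Most of the rest was the collagen gene col2a1a, at 10.4 and 13.4 FPKM against 18.2 and 22.6 FPKM. The collagen gene col9a2 overlapped, at 4.41 and 1.58 FPKM against 0.974 and 4.69 FPKM. The markers shha and flh were under 1 FPKM in all 4 libraries, so these sums do not show that notochord cells were present.

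The otic list had a median of -0.56 over 13 tested genes, with 6 lower without overlap and 2 higher. Its median log2 difference from the uninjected mean was -0.07 in experiment 1 and -0.58 in experiment 2, so the list's shift lay mostly in experiment 2. Over all tested genes these medians were 0.003 and -0.15. Oc90, an otolith matrix gene, was at 24.4 and 21.6 FPKM against 7.12 and 5.02 FPKM (-1.78 ± 0.34, limma adjusted p = 0.919). Eya1, a placode gene, was at 12.8 and 6.23 FPKM against 3.63 and 3.84 FPKM (-1.08 ± 0.43). Both were lower in both morpholino libraries. Foxi1, a factor of ionocyte and otic precursors, was listed at 0 in both uninjected libraries and at 1.63 and 6.38 FPKM in the morpholino libraries. The sum of the otic markers overlapped, at 92.2 and 78.6 FPKM against 84.8 and 55.1 FPKM, and still did when any marker but sox9a was left out. Sox9a, a factor also of cartilage, went the other way, at 28.7 and 22.9 FPKM against 53.5 and 32.0 FPKM. Without it the sums did not overlap, at 63.6 and 55.8 FPKM against 31.3 and 23.2 FPKM. The part of these cell types in the other results was not tested.

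The morpholino libraries also differed from each other, with a median absolute gap of 0.38 on the log2 scale per gene, against 0.26 between the uninjected libraries. Experiment 2 was above experiment 1 in 37.2% of all tested genes. For the p53 feedback genes that share was 60.9%, for mitosis genes 11.5%, for histone genes 6.67% and for Hox genes 18.2%. The Hox genes, which mark position along the body axis, had a median log2 difference from the uninjected mean of 0.60 in experiment 1 and of -0.28 in experiment 2. Mitosis genes had medians of 0.22 and -0.30. Those lists therefore turned direction between the 2 libraries, while the p53 feedback list (0.66 and 0.87), the ribosomal protein list (-0.35 and -0.42) and the endoplasmic reticulum stress list (-0.47 and -0.43) kept theirs.

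Among the other genes with the smallest p, several were all but undetected in uninjected cells. Gpc3, a glypican that binds growth factors at the cell surface, was listed at 0 in both uninjected libraries. It was at 7.44 and 6.51 FPKM in the morpholino libraries in DMSO. MYO18B (3 of 4), an unconventional myosin gene, was listed at 0 in both and at 6.36 and 9.83 FPKM. The membrane protein gene tmem167b (entry ENSDARG00000090105) was listed at 0 in both and at 4.54 and 9.45 FPKM, while a second entry of that name was at 0 and 10.3 FPKM against 6.59 and 3.40 FPKM, overlapping between the groups. An exact 0 in FPKM can be a failed estimate. Of 264 ribosomal, proteasome and respiratory chain genes tested, 5 were listed at 0 in at least 1 of the 4 libraries. Of these 5, 2 were at 0 in both morpholino libraries, and none of the 264 was at 0 in both uninjected libraries. Over all 13145 genes tested, 10 were at 0 in both uninjected libraries and above 0 in both morpholino libraries. The reverse held for 30. Whether such zeros are failed estimates or low levels was not tested. SMIM20, a small mitochondrial protein gene, was at 0.671 and 0.349 FPKM against 7.11 and 7.80 FPKM (2.49 ± 0.41, limma adjusted p = 0.827). SMIM20, gpc3, MYO18B (3 of 4) and the first tmem167b entry were all listed at 0 in both progesterone-treated morpholino libraries. Those libraries share in the fit and so added no spread for these genes. Phlda2, a pleckstrin homology domain gene, was at 0.715 and 0.0791 FPKM against 5.20 and 18.4 FPKM (3.01 ± 0.59). Ctgfa, a matricellular protein gene and a target of YAP, was at 2.25 and 2.72 FPKM against 11.6 and 11.8 FPKM (1.87 ± 0.35), with the 2 libraries of each group close together. The list of YAP targets, which holds ctgfa and phlda2, did not rise with them. Of its 19 tested genes, 6 were higher without overlap and 8 lower, with a median log2 fold change of -0.17.

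Lower genes outside the lists included regulators of the cytoskeleton. Arhgap31, which switches off Rac1 and Cdc42, was at 12.8 and 13.9 FPKM against 2.92 and 3.45 FPKM (-1.78 ± 0.35). Svila, the actin-binding supervillin, was at 8.09 and 4.33 FPKM against 1.26 and 1.08 FPKM (-1.68 ± 0.41). Both genes lay lower in both morpholino libraries, and neither passed (limma adjusted p of at least 0.919). Pnp5b, a purine nucleoside phosphorylase gene, was at 5.29 and 6.995 FPKM against 1.18 and 0.480 FPKM (-1.98 ± 0.40). The steroid-linked transcription factor gene zbtb16a was at 302.1 and 342.6 FPKM against 164.9 and 152.4 FPKM (-1.02 ± 0.38). The groups did not overlap for either gene.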

How the data were processed

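The authors deposited 1 table of FPKM per gene, and its unit was read from a stray header line (1 row) that was removed. Reads were handled with Cufflinks 2.2.1, TopHat2 2.0.11 and cutadapt, per the submitters' processing notes, which also list the builds hg19 and Zv9 without saying what each was for. Libraries were of ribosome-depleted RNA with paired reads of 100 bases, per the labels' protocols. The columns were matched to groups by name, and the uninjected progesterone sample was not analysed here.

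Genes with a mean of at least 1 FPKM over 6 libraries were tested with limma 3.58.1 in R 4.3.3 on log2(FPKM + 1), with 3 groups and a trend, after a check on simulated data. The 92 ERCC spike-in rows were left out. Fold changes are on that log2 scale, on which low genes appear to change less, with their standard error (n = 2 against 2). The spread behind that standard error is pooled over the 3 groups, and p-values were Benjamini-Hochberg adjusted over all 13145 genes. Unless another value is given, the adjusted p of a named gene is at least 0.403. An exact permutation test of 2 libraries against 2 cannot pass 0.05.

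The members and the 47 gene lists were chosen with earlier results of these data known. Named were the 15 higher and the 15 lower genes with the smallest p among symbols without overlap, at 5 FPKM or more in a group and in the same direction after median-ratio scaling, the 2 smallest of each small RNA class, and up to 4 members per list. Ccng1, sesn1, the gadd45 genes, chac1, hspa5, ppp1r15a, msxb, dlb and hey1 were picked after their values were seen. List symbols were matched to the names in the table, and 61 entries found no match. Promoter sequences were not used here, and some genes that this rule names are not reported here.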

Additional observations from a re-analysis of the deposited data

Results flagged for a closer look

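Synthetic ERCC spike-in transcripts, which no comparison used and whose amounts the labels do not give, stood higher in the morpholino libraries. They summed to 229.1 FPKM in experiment 1 and to 139.4 FPKM in experiment 2, against 1.96 and 22.4 FPKM in the uninjected libraries. Of 92 spike-in transcripts, 23 and 22 were above 0 with the morpholino and 8 and 12 without it. Both values drew attention because they lie above the level in the control libraries, in data outside the main measurement. The part of the added spike-in in the results was not tested.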

How the results depend on the processing

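Under 16 alternatives, the count of genes called higher was 0 in the main test and in all but 1, array weights, which gave 2. The count called lower, 2 in the main test, was 0 with a pseudocount of 0.1, 1 with no filter, 1 with a mean of at least 5 FPKM, 0 with small non-coding RNA left out (smallest adjusted p = 0.964) and 4 with array weights. It ran from 0 to 3 when each library was left out, 0 without any of the 4 DMSO libraries and 3 without either progesterone library, an alternative chosen after seeing the data. A library left alone in its group was assumed to vary like the others. The cause of the other moves was not tested, apart from the U6 copies being themselves small non-coding RNA. At an unadjusted p under 0.05 the count of 535 genes became 1425 with the 4 DMSO libraries alone and 1436 with array weights, and fell to 201 without the 10 ng library. Of 117 named genes, 116 kept their sign throughout, which the choice of non-overlapping groups largely fixes, and sox10, at 0.02, ran from -0.16 (without experiment 1) to 0.19 when each library was left out, and was -0.05 without the 5 ng library. Of those 117, which hold no small RNA, trpm1b alone passed in an alternative, with array weights; of the small RNAs named, the U5 copy passed with the 4 DMSO libraries alone, under either scaling, and without either progesterone library, and a SNORA63 copy passed with array weights. Of 45 lists, 26 had a median that moved by more than the spread between libraries in some alternative. No paired analysis was possible because the uninjected columns carry no experiment number, so the replicate block was not run. Depth is unknown, 3 residual degrees of freedom limit every test, and a listed 0 can be a failed estimate.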
